A study of Homo sapiens with 6 samples.

Results

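The genes described here are 10 genes of ferritin and cellular iron handling, taken by symbol from the 58735 genes of a count table made from LN229 cells, an established human glioblastoma line. Ordered by role, they are FTH1, FTL and NCOA4 (storage), TFRC, STEAP3 and SLC11A2 (uptake), SLC40A1 (export), IREB2 and ACO1 (iron sensing) and HMOX1 (release of iron from haem). All 10 were found, each in 1 row. The study compared 3 libraries of LN229 cells overexpressing HSD52, which is transcribed into a long non-coding RNA (HSD52_OE), with 3 libraries of LN229 cells labelled as wild type (control), by sequencing poly-A-selected RNA. The labels give neither an empty vector in the control cells, nor the construct, nor whether the HSD52_OE cells were a pool or 1 clone, nor whether each replicate had its own culture. What the p-values weigh is the scatter of these 6 libraries, some of which may be technical.

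Iron enters most cells as transferrin-bound ferric iron through the transferrin receptor, is reduced in endosomes and is passed to the cytosol by a divalent metal transporter. Iron that is not used is stored in ferritin, a shell of heavy and light subunits, and leaves the cell through ferroportin. A pair of iron regulatory proteins balances these steps. In iron-poor cells they bind iron-responsive elements, short stem-loops in messenger RNA, which blocks translation of ferritin and ferroportin and stabilises the transferrin receptor messenger. Glioblastoma cells are known for high transferrin receptor and ferritin. The counts here measure messenger RNA, not protein or iron.

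HSD52 had 1252, 1336 and 1327 counts in the HSD52_OE libraries and 11, 7 and 12 counts in the control libraries. Library totals ranged from 17777157 to 18917790 counts. HSD52_OE libraries differed less from each other (chi-square over its degrees of freedom 1.92 to 2.76 between pairs) than control libraries did (10.5 to 12.9). Of 9 glioma and astrocyte markers, the most abundant were VIM, NES, S100B and CD44, and AQP4 was close to 0. Of the 8 tested, GFAP and SOX2 were higher in HSD52_OE cells (log2 fold changes 0.59 and 0.34), and EGFR, S100B and CD44 were lower (-1.05, -0.43 and -0.30). These shares, 25.0% higher and 37.5% lower, stand beside 25.0% higher and 25.6% lower of all genes tested. Macrophage markers summed to 1.72 to 3.10 CPM (counts per 1000000, TMM-scaled) in HSD52_OE cells and 1.17 to 2.79 CPM in control cells, with AIF1 at 0 counts in all libraries. Hepatocyte markers summed to at most 10.1 CPM in HSD52_OE cells and 9.34 CPM in control cells, with ALB at 0 counts, and endothelial markers to at most 2.05 CPM in HSD52_OE cells and 2.45 CPM in control cells. Erythroid markers summed to 12.4 to 15.1 CPM in HSD52_OE cells and 10.5 to 14.9 CPM in control cells, most of it EPOR, with HBG1 at 0 counts. HBB had 29, 33 and 27 counts in HSD52_OE libraries and 0 in each control library. Fibroblast markers moved with the groups: all 7 fell, beside 25.6% of all genes tested. The markers summed to 38.9 to 40.5 CPM in HSD52_OE cells and 111 to 203 CPM in control cells. The lowest of them in HSD52_OE cells was COL1A2, with 1, 0 and 6 counts in HSD52_OE libraries and 62, 75 and 26 in control libraries. Of 4 nuclear-retained transcripts tested, 3 rose (75.0%) and 1 fell (25.0%), beside 25.0% and 25.6% of all genes tested. The list summed to 687 to 916 CPM in HSD52_OE cells and 235 to 282 CPM in control cells. The part of these shifts in the results given next was not tested.

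Both ferritin subunit genes fell, and so did a sensor gene and the haem gene, while the uptake members TFRC and SLC11A2 did not pass the test. FTH1, FTL, ACO1 and HMOX1 were lower in HSD52_OE cells, STEAP3 was higher, and TFRC, SLC11A2, IREB2 and NCOA4 did not pass (quasi-likelihood test of edgeR, p-values adjusted by Benjamini-Hochberg over 16322 genes, threshold 0.05). SLC40A1 had too few counts to be tested. Expression differed widely between the groups, so these counts stand beside a high background. Of all genes tested, 25.6% were lower and 25.0% higher in HSD52_OE cells, and 50.6% were called in either direction. The members' 4 lower and 1 higher of 9 tested were 44.4% and 11.1%, with a median log2 fold change of -0.07, against a median of 0.01 for all genes. Among protein-coding genes tested, 30.1% were lower and 21.4% higher, with a median of -0.056, close to that of the members. With 9 genes such shares are coarse, and nothing particular to the members is read from them. In bulk RNA, fewer cells expressing a gene and less of its RNA per cell cannot be told apart.

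**Figure D1:**
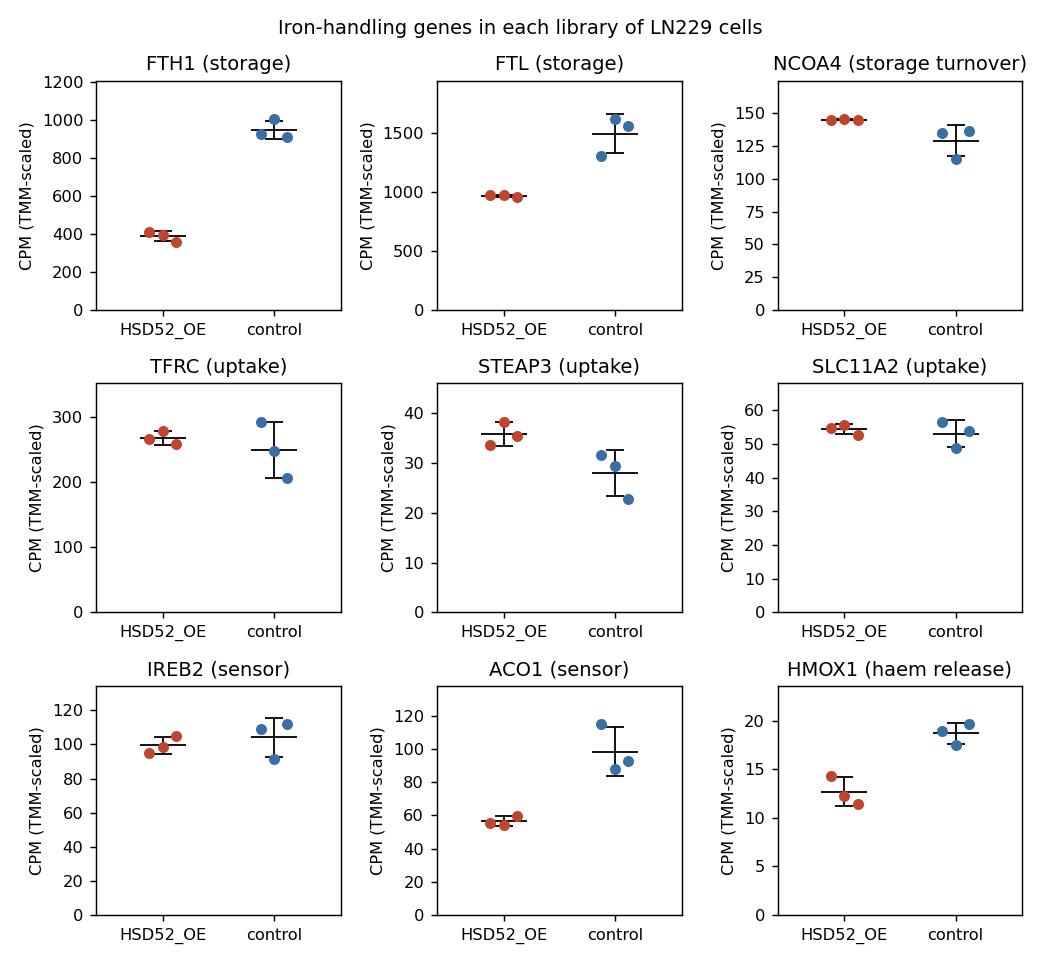
TMM-scaled CPM of 9 members in each library (points), with the mean (long bar) and SD (whiskers) of 3 libraries per group, HSD52_OE left and control right; each y axis starts at 0. FTH1, FTL, ACO1 and HMOX1 lie lower in every HSD52_OE library than in any control library. NCOA4 and STEAP3 lie higher in every HSD52_OE library, while TFRC, SLC11A2 and IREB2 overlap. Of all genes tested, the groups did not overlap in 58.9%, 29.6% with HSD52_OE higher and 29.3% with HSD52_OE lower.

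FTH1, the heavy ferritin subunit, which oxidises ferrous iron for storage, showed the largest change of the 9 tested members. FTH1 (ENSG00000167996, chromosome 11, 61959718 to 61967660, minus strand, hg38) had 7651, 7570 and 7086 counts in HSD52_OE libraries and 15876, 17643 and 16433 counts in control libraries. In CPM these were 412, 394 and 360 in HSD52_OE cells against 927, 1004 and 912 in control cells. Every HSD52_OE library was below every control library, by more than the whole spread within either group. The fold of HSD52_OE over control was 0.410, a log2 fold change of -1.29 ± 0.09 (SE; edgeR adjusted p = 7.42e-08). FTH1 overlaps BEST1 on the opposite strand over 5798 bases. The strand setting of the counting is not given in the sources used here. BEST1 itself held 30, 55 and 30 counts in HSD52_OE libraries and 25, 14 and 17 in control libraries, far fewer than FTH1. These counts do not show whether reads lying over both genes were left out of both, which was not tested.

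FTL, the light subunit, which supports the mineral core, fell less in size. FTL (ENSG00000087086, chromosome 19, 48965301 to 48966878, plus strand) had 973, 975 and 957 CPM in HSD52_OE cells against 1309, 1621 and 1563 CPM in control cells. The HSD52_OE libraries lay close together and all below the control libraries, of which replicate 1 was the lowest. The fold was 0.647 and the log2 fold change -0.63 ± 0.10 (edgeR adjusted p = 0.000115). FTH1 and FTL together took 0.145%, 0.142% and 0.137% of all counts in HSD52_OE libraries and 0.210%, 0.248% and 0.244% in control libraries.

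Both ferritin messengers carry an iron-responsive element in the 5′ UTR, and the transferrin receptor messenger carries several in the 3′ UTR, so the elements that set these genes on opposite sides of the same sensors are shown here. They were found in GENCODE 29 transcripts (GRCh38) on the strand of the transcript as a C, any 5 bases, CAGTGN with N other than G, and 5 bases that pair with the first 5, G with T allowed. Each is printed 5′ to 3′ over 30 bases, with the 6-base loop that the regulatory proteins contact in capitals.
FTH1, 5′ UTR, chr11:61967573-61967602, minus strand: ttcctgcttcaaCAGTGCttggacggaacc
FTL, 5′ UTR, chr19:48965335-48965364, plus strand: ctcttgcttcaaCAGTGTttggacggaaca
SLC40A1, 5′ UTR, chr2:189580660-189580689, minus strand: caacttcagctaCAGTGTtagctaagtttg
TFRC, 3′ UTR, chr3:196050978-196051007, minus strand: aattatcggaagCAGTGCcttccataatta
TFRC, 3′ UTR, chr3:196050574-196050603, minus strand: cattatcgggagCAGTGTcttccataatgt
TFRC, 3′ UTR, chr3:196050509-196050538, minus strand: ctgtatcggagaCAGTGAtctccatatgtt
TFRC, 3′ UTR, chr3:196050462-196050491, minus strand: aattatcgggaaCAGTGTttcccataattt
The FTH1 and FTL elements were identical at 26 of 30 bases. TFRC held 4 matches, and 4 of the 10 members held at least 1. Of 19702 protein-coding genes searched, 214 (1.09%) held a match anywhere in a transcript, while members' matches also had to lie unbroken over 30 genomic bases. The members were chosen as iron genes and the search was for the element known in such genes. These shares are therefore not compared. A match describes these letters and is no measure of binding, and a gene without one may carry an element of another form.

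The balance of the subunits shifted, which a ratio within each library shows free of library scaling. The ratio of FTH1 to FTL counts was 0.423, 0.404 and 0.376 in HSD52_OE libraries and 0.708, 0.619 and 0.584 in control libraries. The groups did not overlap. The means were 0.401 ± 0.0236 in HSD52_OE cells and 0.637 ± 0.0640 in control cells (SD, n = 3 each), a log2 difference of -0.66 (exact 2-sided permutation p = 0.1, the smallest that 3 libraries against 3 allow). The ratio of TFRC to FTH1 counts was 0.647, 0.709 and 0.717 in HSD52_OE libraries and 0.316, 0.247 and 0.226 in control libraries. This uptake-to-storage ratio was higher in every HSD52_OE library, by 2.65-fold on average (log2 difference 1.41, exact 2-sided permutation p = 0.1). Of its terms, FTH1 fell and TFRC alone did not pass the test. Ratios of counts depend on gene length, so they compare groups and not the amounts of the messengers.

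**Figure D2:**
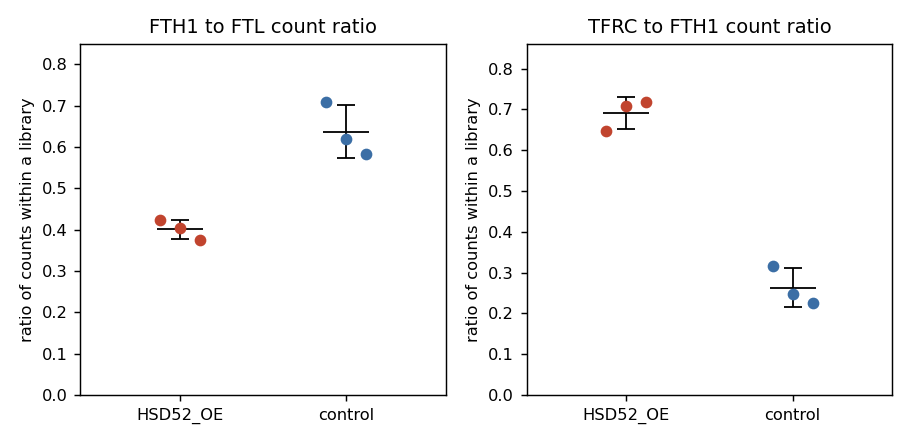
Ratio of raw counts within each library (points) for FTH1 to FTL (left) and TFRC to FTH1 (right), with the mean (long bar) and SD (whiskers) of 3 libraries per group, HSD52_OE left of control. FTH1 to FTL averages 0.401 in HSD52_OE and 0.637 in control cells, and TFRC to FTH1 0.691 in HSD52_OE and 0.263 in control cells.

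Ferritin genes have many processed pseudogenes, intronless copies that can take or lend reads. The table held 25 FTH1 pseudogenes, 15 of them with counts, and 16 FTL pseudogenes, 1 of them with counts. FTH1 pseudogenes together had 56, 75 and 59 counts in HSD52_OE libraries and 141, 138 and 147 in control libraries, which was 0.732% to 0.991% and 0.782% to 0.895% of the FTH1 counts. Those with the most counts were FTH1P7, FTH1P2 and FTH1P8, with log2 fold changes of -2.09, -1.52 and -2.08, all past the threshold. Reads that match a parent and its copy alike cannot be told apart in these counts. FTLP3 had 6, 3 and 7 counts in HSD52_OE libraries and 12, 9 and 13 in control libraries. Adding the pseudogene counts to their parents left FTH1 at a log2 fold change of -1.28 and FTL at -0.62.

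NCOA4, the cargo receptor that delivers ferritin to lysosomes for iron release, did not follow the ferritin genes. NCOA4 (ENSG00000266412, chromosome 10, 46005088 to 46030714, minus strand) had 145, 146 and 145 CPM in HSD52_OE cells against 135, 116 and 137 CPM in control cells. The HSD52_OE libraries were nearly equal and lay just above the highest control library. In 6 of the 9 members the groups did not overlap, 2 with HSD52_OE higher and 4 with HSD52_OE lower, against 58.9% of all genes tested, 29.6% with HSD52_OE higher and 29.3% with HSD52_OE lower. The log2 fold change was 0.17 ± 0.09 with a 95% interval of -0.01 to 0.35 (edgeR adjusted p = 0.110). The adjusted p was 0.0368 without control replicate 3, 0.0105 with library totals as the only scaling and 0.0356 with protein-coding genes alone, all in the same edgeR test and all with a higher level in HSD52_OE cells.

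TFRC, the transferrin receptor, was abundant in both groups and did not pass the test. TFRC (ENSG00000072274, chromosome 3, 196027183 to 196082189, minus strand) had 266, 279 and 258 CPM in HSD52_OE cells and 293, 248 and 207 CPM in control cells. The control libraries spanned the HSD52_OE libraries on both sides. The log2 fold change was 0.10 ± 0.11, with a 95% interval of -0.13 to 0.34 (edgeR adjusted p = 0.446), and -0.02 without control replicate 3. Without control replicate 1 it was 0.22 (adjusted p = 0.0590, same edgeR test). With library totals as the only scaling it was 0.23 (adjusted p = 0.0635, same edgeR test). The interval of the main setting leaves out changes beyond 0.34 on the log2 scale, but does not show that the groups were alike.

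STEAP3, the ferrireductase that reduces transferrin-delivered iron in endosomes, was the member that rose. STEAP3 (ENSG00000115107, chromosome 2, 119223831 to 119265652, plus strand) had 33.5, 38.3 and 35.3 CPM in HSD52_OE cells and 31.7, 29.4 and 22.8 CPM in control cells. The groups did not overlap, but the lowest HSD52_OE library and the highest control library were close. The fold was 1.28 and the log2 fold change 0.35 ± 0.12 (edgeR adjusted p = 0.0196). The call rested on single libraries, with an adjusted p of 0.0909 without HSD52_OE replicate 2, 0.0523 without HSD52_OE replicate 3 and 0.0616 without control replicate 3 in the same edgeR test. STEAP3-AS1, antisense to it over 4650 bases, had 8, 5 and 4 counts in HSD52_OE libraries and 1, 2 and 3 in control libraries, against 410 or more for STEAP3. Whether reads lying over both of these genes were left out of both was not tested.

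SLC11A2, the divalent metal transporter that moves iron out of endosomes, did not pass the test. SLC11A2 (ENSG00000110911, chromosome 12, 50979401 to 51028566, minus strand) had 54.8, 55.5 and 52.6 CPM in HSD52_OE cells and 56.6, 48.7 and 53.8 CPM in control cells, and the groups overlapped. Its log2 fold change was 0.03 ± 0.09, with a 95% interval of -0.15 to 0.22 (edgeR adjusted p = 0.764). SLC40A1, ferroportin, the known cellular iron exporter, was close to silent. SLC40A1 (ENSG00000138449, chromosome 2, 189560579 to 189583758, minus strand) had 0, 1 and 0 counts in HSD52_OE libraries and 0 counts in each control library. A count of 0 allows up to 0.159 to 0.169 CPM in a library of this depth (3 counts of the library total, counting error only), so no difference was detectable.

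Of the iron regulatory proteins, which bind the elements printed above, ACO1 fell and IREB2 did not pass the test. ACO1 encodes the protein that works as cytosolic aconitase when it holds an iron-sulphur cluster and binds RNA when it does not. ACO1 (ENSG00000122729, chromosome 9, 32384603 to 32454769, plus strand) had 55.7, 54.4 and 60.0 CPM in HSD52_OE cells against 115, 87.9 and 92.6 CPM in control cells. Every HSD52_OE library was below every control library, of which replicate 1 was the highest. The fold was 0.575 and the log2 fold change -0.80 ± 0.10 (edgeR adjusted p = 1.32e-05). IREB2 encodes the regulatory protein that is degraded in iron-rich cells and is controlled mainly as a protein. IREB2 (ENSG00000136381, chromosome 15, 78437431 to 78501456, plus strand) had 95.0, 98.5 and 105 CPM in HSD52_OE cells and 109, 91.3 and 112 CPM in control cells, so the groups overlapped. Its log2 fold change was -0.07 ± 0.09, with a 95% interval of -0.26 to 0.13 (edgeR adjusted p = 0.562), and 0.06 with library totals as the only scaling. The 95% intervals of the ACO1 and IREB2 changes did not overlap, and the difference between them was not tested.

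HMOX1, haem oxygenase 1, which frees iron from haem and is induced by oxidative stress and haem, was low in both groups and fell. HMOX1 (ENSG00000100292, chromosome 22, 35380361 to 35394214, plus strand) had 266, 236 and 225 counts in HSD52_OE libraries and 324, 308 and 354 counts in control libraries. In CPM these were 14.3, 12.3 and 11.4 in HSD52_OE cells and 18.9, 17.5 and 19.6 in control cells, with no overlap. The fold was 0.677 and the log2 fold change -0.56 ± 0.12 (edgeR adjusted p = 0.00114).

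**Figure D3:**
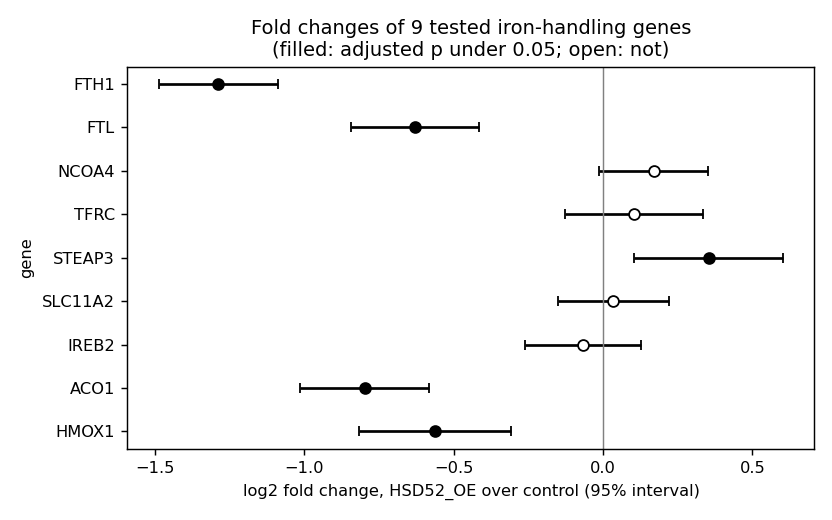
Log2 fold change of HSD52_OE over control for the 9 tested members (x axis; points) with 95% intervals from the edgeR fit (whiskers); filled points have an adjusted p under 0.05 and open points do not. FTH1 stands farthest from 0 at -1.29, and the intervals of NCOA4, TFRC, SLC11A2 and IREB2 include 0.

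Set per kilobase of gene length, the ferritin subunits FTL and FTH1 stood far above the other members in both groups. FTL averaged 1103 ± 11.2 CPM per kb in HSD52_OE cells and 1706 ± 189 in control cells, and FTH1 191 ± 13.0 in HSD52_OE cells and 467 ± 24.4 in control cells. NCOA4 (35.6 in HSD52_OE and 31.6 in control cells) and TFRC (34.0 in HSD52_OE and 31.6 in control cells) followed. In HSD52_OE cells the order went on with IREB2, STEAP3, ACO1, SLC11A2 and HMOX1, of which STEAP3 and ACO1 overlapped, as did SLC11A2 and HMOX1. In control cells it went on with ACO1, IREB2, HMOX1, STEAP3 and SLC11A2, where STEAP3 and SLC11A2 overlapped, as did NCOA4 and TFRC before them. ACO1 thus averaged 7.50 CPM per kb and ranked below IREB2 (9.20) in HSD52_OE cells, and averaged 13.0 and ranked above IREB2 (9.64) in control cells. SLC40A1 was last in both groups. Lengths were those of the deposited table, which may not fit the transcripts these cells use.

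The 5 protein-coding genes most like FTH1 over the 6 libraries, among 9802 with a mean of at least 10 CPM, were KCNIP3, STARD10, TSEN54, FLOT2 and NUDT3. Likeness was the root mean square difference of log2 CPM centred on the control mean, and ran from 0.068 for KCNIP3 to 0.089 for NUDT3. KCNIP3, which encodes a calcium-binding protein, averaged 9.38 ± 0.624 CPM in HSD52_OE cells and 24.1 ± 2.45 CPM in control cells, and FLOT2, a lipid-raft protein, 70.1 ± 1.75 CPM in HSD52_OE cells and 161 ± 8.97 CPM in control cells. For TFRC the nearest were CELSR1, TMEM43, MUL1, AHNAK and ESPL1, at 0.037 to 0.046. None of the TFRC set passed the test, and all of the FTH1 set were lower in HSD52_OE cells, as the measure requires.

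Of the other genes of iron metabolism, 98 in 9 lists by function, 88 were tested. Of these 6 rose (6.82%) and 34 fell (38.6%), and their log2 fold changes had a median of -0.16. The background for protein-coding genes was 21.4% higher and 30.1% lower, and a median of -0.056. With library totals as the only scaling, which raised the median of all genes by 0.12 to 0.13, 14 rose and 23 fell, and of all genes 5337 rose and 2933 fell, against 4086 and 4173 with TMM. In the fit of protein-coding genes alone, 9 rose and 27 fell, and of all genes in that fit 3266 rose and 3374 fell.

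Other uptake genes held more lower than higher members. Of 9 tested, 0 rose and 6 fell (66.7%, median log2 fold change -0.57), and 4 fell with library totals. Of protein-coding genes 30.1% were lower and 21.4% higher. CYBRD1, a ferric reductase of the plasma membrane, averaged 33.4 ± 3.77 CPM in HSD52_OE cells and 57.4 ± 3.66 CPM in control cells (SD, n = 3 each). SLC39A14, a transporter that takes up iron not bound to transferrin, averaged 98.1 ± 3.09 CPM in HSD52_OE cells and 151 ± 23.6 CPM in control cells. Of 8 export and hepcidin-axis genes tested, 1 rose (12.5%) and 3 fell (37.5%), the lower share not far from that background. CP, ceruloplasmin, the ferroxidase that works with ferroportin, fell to 0.244 ± 0.0838 CPM in HSD52_OE cells, against 4.53 ± 1.96 CPM in control cells. NEO1, a receptor that binds hemojuvelin, averaged 30.3 ± 0.572 CPM in HSD52_OE cells and 11.0 ± 1.61 CPM in control cells and was the member that rose, and BMPR2, a BMP receptor, fell by 0.36 on the log2 scale. HAMP, hepcidin itself, was close to 0 in both groups.

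Of 8 chaperone and turnover genes tested, 0 rose and 2 fell (25.0%), and 4 fell without control replicate 2. The 25.0% lies near the 30.1% lower of protein-coding genes, of which 21.4% were higher. PCBP1, a chaperone that brings iron to ferritin, averaged 165 ± 3.05 CPM in HSD52_OE cells and 229 ± 37.0 CPM in control cells. HERC2, a ubiquitin ligase, fell by 0.45 on the log2 scale. FBXL5, the iron-sensing ligase subunit that removes IREB2 protein, averaged 60.6 ± 2.54 CPM in HSD52_OE cells and 58.7 ± 1.52 CPM in control cells, which did not pass (edgeR adjusted p = 0.667). Of 4 tested further transcripts known to carry an iron-responsive element, 0 rose and 3 fell (75.0%), and 2 fell with library totals. With 4 genes such a share is coarse. EPAS1, which encodes the hypoxia-inducible factor 2 alpha, averaged 9.41 ± 0.232 CPM in HSD52_OE cells and 31.7 ± 4.75 CPM in control cells, and CDC14A, a phosphatase, 3.79 ± 0.0995 CPM in HSD52_OE cells and 7.05 ± 0.942 CPM in control cells.

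Haem and iron-sulphur lists held calls in both directions, and their shares stand beside the 30.1% lower and 21.4% higher of protein-coding genes. Of 13 haem synthesis genes tested, 1 rose (7.69%) and 4 fell (30.8%), with the lower share near that background, and 2 rose and 2 fell with library totals. With HSD52_OE replicate 1 or HSD52_OE replicate 2 left out, 0 rose and 2 fell, and 0 rose with no low-count filter, so the call of CLPX rested on these choices. ALAS1, the rate-limiting enzyme of haem synthesis outside red cells, averaged 38.2 ± 0.395 CPM in HSD52_OE cells and 54.5 ± 2.60 CPM in control cells, ABCB10, a mitochondrial transporter, fell by 0.62 on the log2 scale, and CLPX, of a mitochondrial protease, had a log2 fold change of 0.26. Of 11 haem breakdown and transport genes, 1 rose (9.09%) and 6 fell (54.5%), and 2 rose and 5 fell with library totals. In the fit of protein-coding genes alone, 2 rose and 6 fell. BLVRB, a biliverdin reductase, averaged 24.0 ± 1.49 CPM in HSD52_OE cells and 39.3 ± 3.20 CPM in control cells, and SLC46A1, a folate and haem transporter, fell by 1.18 on the log2 scale. HPX, which binds free haem, rose at a low level, with 0.735 ± 0.251 CPM in HSD52_OE cells and 0.189 ± 0.0862 CPM in control cells, and its call was lost without HSD52_OE replicate 1. Of 17 mitochondrial iron-sulphur genes tested, 1 rose (5.88%) and 5 fell (29.4%), the lower share again near the background, but 5 rose and 3 fell with library totals. In the fit of protein-coding genes alone, where 3266 genes rose and 3374 fell, 3 of this list rose and 3 fell. With a library left out 0 to 3 rose and 3 to 6 fell: 0 rose without HSD52_OE replicate 2 or control replicate 1, and 2 or 3 rose without HSD52_OE replicate 3, control replicate 2 or control replicate 3. The lower count was 3 without HSD52_OE replicate 1 or HSD52_OE replicate 3. GLRX5, a glutaredoxin that carries clusters, and FDX1, a ferredoxin, had log2 fold changes of -0.43 and -0.60, both past the threshold, and SLC25A37, a mitochondrial iron importer and the gene called higher, had a log2 fold change of 0.30, a call lost without HSD52_OE replicate 2 or control replicate 1. Of 10 cytosolic iron-sulphur genes, 1 rose and 4 fell, and 2 rose and 2 fell with library totals. CIAO2B and MMS19, of the complex that places clusters on proteins, had log2 fold changes of -0.58 and -0.37, both past the threshold, and NUBP1, a scaffold for cluster assembly, rose by 0.56.

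The regulators of HMOX1 and ferritin transcription mostly did not pass the test. Of 8 tested, 1 rose and 1 fell (12.5% each, against 21.4% and 30.1% of protein-coding genes), with 2 higher with library totals and 2 lower without control replicate 3. BACH1, a haem-binding repressor of HMOX1 and the ferritin genes, averaged 55.1 ± 2.96 CPM in HSD52_OE cells and 40.5 ± 4.47 CPM in control cells (log2 fold change 0.44 ± 0.10, edgeR adjusted p = 0.00134). HIF1A, a hypoxia-inducible factor that can induce HMOX1 and TFRC, averaged 266 ± 2.46 CPM in HSD52_OE cells and 439 ± 36.1 CPM in control cells (log2 fold change -0.72 ± 0.09, adjusted p = 1.04e-05 in the same edgeR test). NFE2L2, which encodes the activator NRF2, averaged 114 ± 4.86 CPM in HSD52_OE cells and 109 ± 14.1 CPM in control cells, and KEAP1, its inhibitor, 103 ± 1.59 CPM in HSD52_OE cells and 95.7 ± 5.96 CPM in control cells. Neither passed (adjusted p = 0.544 for NFE2L2 and 0.287 for KEAP1, edgeR quasi-likelihood test). Messenger levels do not measure the activity of these factors.

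**Figure D4:**
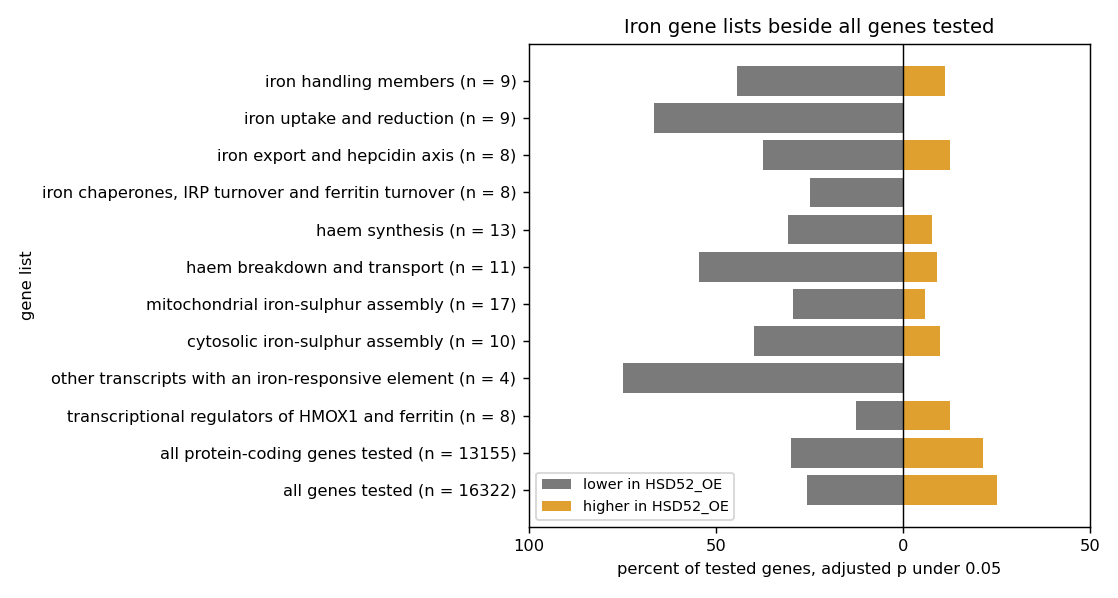
Percent of tested genes called lower (grey, left of 0) and higher (amber, right of 0) in HSD52_OE over control for the members, 9 lists of other iron genes, all protein-coding genes and all genes, with the number tested in brackets. Of all genes 25.6% were lower and 25.0% higher, and of protein-coding genes 30.1% were lower and 21.4% higher. Most iron lists are longer on the lower side, as is the bar of protein-coding genes.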

How the data were processed

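Poly-A-selected RNA of 6 LN229 libraries, 3 HSD52_OE and 3 control, was analysed from 1 deposited table of raw read counts per gene. Per the submitters' processing notes, the submitters used CASAVA, HISAT2 2.0.5, featureCounts 1.5.0-p3 and the hg38 build. Strand setting, annotation release and read filters were not stated there. Overlapping genes and near-identical copies are therefore uncertain. The authors deposited the counts with no normalization.

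Low counts were removed with filterByExpr, leaving 16322 of 58735 genes. Counts were TMM-scaled and compared between groups, with no covariate, by the robust quasi-likelihood test of edgeR 4.0.16 under R 4.3.3, 2-sided. Adjusted p-values are Benjamini-Hochberg values over the genes each fit tested (16322 in the main setting), called under 0.05. CPM are TMM-scaled, given as mean ± SD over 3 libraries. Log2 fold changes are HSD52_OE over control, and the SE is the change divided by the root of the F statistic. Log2 CPM used a prior count of 2. The 95% intervals come from the same fit. The fits were tested on simulated counts with known changes. Few genes changed there and both groups scattered alike, unlike here, so scaling and error rates in these data were not tested. Count ratios were compared with exact permutation tests.

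The members and lists were chosen with earlier results of these data known. All members are named, with the 2 genes of smallest p per direction of each list, and the 3 pseudogenes with most counts per parent. Further genes were named after their values were seen. Alternatives were other size factors, filters, DESeq2 1.42.0, limma-voom (limma 3.58.1), a replicate block, protein-coding genes alone, pseudogene counts added to their parents, and each library left out.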

Additional observations from a re-analysis of the deposited data

How the results depend on the processing

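FTH1, FTL, ACO1 and HMOX1 stayed lower and past the threshold in all 16 fits. Over these fits the log2 fold change of FTH1 ran from -1.33 to -1.16, that of FTL from -0.73 to -0.51, that of ACO1 from -0.88 to -0.67 and that of HMOX1 from -0.66 to -0.44. STEAP3 passed in 13 of 16 fits, and NCOA4 in 3. The number of members called higher was 1 in the main setting, 2 with library totals and 2 with protein-coding genes alone, and 0 to 1 with a library left out. Other iron genes called higher numbered 14 with library totals, 9 with protein-coding genes alone and 4 to 8 with a library left out, against 6. Uncalled changes that crossed 0 were IREB2 at 0.056 with library totals, SLC11A2 at -0.0070 with no low-count filter, and, with a library left out, TFRC (-0.021 to 0.22) and SLC11A2 (-0.030 to 0.068). The FTH1 to FTL log2 difference ran from -0.73 to -0.59 and that of TFRC to FTH1 from 1.30 to 1.55 with a library left out. The causes were not tested.

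Libraries with the same replicate number correlated at 0.03 to 0.04 in their deviations from the group means, and every library correlated best with its own number, but the labels do not pair them. With the replicate block 4210 genes were higher and 4226 lower, and the members' calls stayed the same, with a log2 fold change of -1.29 for FTH1. Paired within numbers, the ratio differences had an exact sign-flip p of 0.25, the smallest that 3 pairs allow. Depth limits SLC40A1, for which no comparison was possible.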
